A study of Mus musculus with 55 samples.

Results

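Immediate early genes are the genes that a neuron transcribes within minutes of being stimulated. The 10 described here, Arc, Npas4, Fos, Fosb, Junb, Egr1, Egr2, Egr3, Egr4 and Nr4a1, were chosen by symbol as genes switched on by neuronal activity, and make up 10 of the 22800 genes in the count table. All 10 had a read in at least 1 cell of each group. The data are RNA sequencing of cytosol taken through a patch pipette, 1 cell at a time, from pyramidal neurons in the prefrontal cortex of mice. By the labels a neuron is a D1 or a D2 cell, kinds named after dopamine receptors, and comes from a mouse without a knockout, called wild-type here, or from an Fmr1-/y mouse, a model of fragile X syndrome that lacks the RNA-binding protein FMRP. The groups were 15 wild-type D1 cells (mice aged 28 to 34 days), 26 wild-type D2 cells (29 to 35 days), 6 knockout D1 cells (31 and 32 days) and 7 knockout D2 cells (32 days). The labels give neither the animal that each cell came from nor the strain, the marker by which D1 and D2 cells were recognised or what a cell underwent before its cytosol was taken. Cells are therefore not replicates and each group is 1 sample, so that no p-value is given and each difference describes these cells only.

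These genes need no new protein to be transcribed. Calcium entering through NMDA receptors and voltage-gated channels activates CaM kinases, calcineurin, MAP kinases and protein kinase A, which act on factors already bound at the promoters, among them CREB, SRF with its partners, and MEF2. Most members then encode transcription factors that switch on a second set of genes, and Arc encodes a synaptic protein. Fos and FosB each pair with JunB or another Jun protein into AP-1 dimers. The 4 Egr proteins are zinc-finger factors, of which Egr1, Egr2 and Egr3 are held in check by the Nab co-repressors. Nr4a1 is an orphan nuclear receptor, and Npas4 is a bHLH-PAS factor known for responding to calcium more strictly than to growth factors. Arc moves AMPA receptors off the synapse through endophilin and dynamin, and its mRNA is a known target of FMRP.

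The promoters are shown first because CREB sites are the feature that the upstream pathway acts on. Arc, Egr1 and Egr3 were not searched, which does not mean that Egr1 has no window. RefSeq promoter windows were searched for 7 of the 10 members (Npas4, Fos, Fosb, Junb, Egr2, Egr4 and Nr4a1). In each window the 250 bases before the transcription start were read on both strands. The motifs were the full CREB site TGACGTCA, its half-site TGACG, the letters TATAAA and the CArG box that SRF binds. The half-site also counts within a full site. Over all their windows, a half-site was found for 7 of these 7 and the full site for 0. Over the 27025 genes with a window the shares were 17.9% and 1.62%. Those shares count 1 window per gene, the first listed. The first listed of the 5 Egr2 windows held 0 half-sites and 0 CArG boxes, so the 7 of 7 is not like for like with 17.9%. Of the other motifs, TATAAA was found for Fos (12.97% of all genes). A CArG box was found for Egr2 only in windows after the first listed (1.40% of all genes by the first listed window). The half-sites in the 250 bases of each window numbered 4 for Nr4a1, 2 for each of Npas4, Egr4 and Fos, and 1 for each of Junb and Fosb. In Egr2, which has 5 listed windows, 3 of them held 2. The 4 windows below belong to members with a mean log2 level higher by over 1 unit in knockout D1 cells than in the other knockout cells. Nr4a1 (difference 4.39) and Fosb (3.05) also meet this rule, and their windows are not printed. Egr2, read in 1 cell of each knockout group, held half-sites too and differed by 0.04. Whether half-sites go with these levels was not tested. Capitals mark the half-site on either strand; a match is a description of the letters and no evidence of binding. The build is GRCm38.p6 and each is written 5′ to 3′ on the strand of the gene: Npas4 chr19:4989972-4990221 (minus strand), Egr4 chr6:85513590-85513839 (minus strand), Junb chr8:84978749-84978998 (minus strand) and Fos chr12:85473640-85473889 (plus strand).
Npas4: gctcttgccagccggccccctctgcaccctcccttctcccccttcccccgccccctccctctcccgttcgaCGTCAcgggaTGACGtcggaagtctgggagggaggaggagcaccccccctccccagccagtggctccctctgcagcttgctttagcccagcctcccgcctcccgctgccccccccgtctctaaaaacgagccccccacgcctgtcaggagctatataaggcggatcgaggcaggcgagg
Egr4: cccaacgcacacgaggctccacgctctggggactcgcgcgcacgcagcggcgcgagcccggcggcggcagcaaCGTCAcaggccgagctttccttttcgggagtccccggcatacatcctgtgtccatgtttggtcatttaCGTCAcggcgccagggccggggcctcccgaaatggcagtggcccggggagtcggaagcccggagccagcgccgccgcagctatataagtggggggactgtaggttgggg
Junb: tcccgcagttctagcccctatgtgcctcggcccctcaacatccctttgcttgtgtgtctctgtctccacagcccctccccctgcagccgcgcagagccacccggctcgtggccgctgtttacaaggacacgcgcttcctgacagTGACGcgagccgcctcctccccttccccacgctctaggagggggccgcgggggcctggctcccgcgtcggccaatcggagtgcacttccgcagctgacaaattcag
Fos: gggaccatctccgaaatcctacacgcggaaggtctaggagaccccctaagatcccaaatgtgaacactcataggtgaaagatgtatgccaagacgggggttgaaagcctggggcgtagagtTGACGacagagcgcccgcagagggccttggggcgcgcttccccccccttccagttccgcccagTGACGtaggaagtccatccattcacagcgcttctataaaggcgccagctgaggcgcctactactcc
In Npas4 the half-sites began 179 and 169 bases before the start, in Egr4 177 and 109, in Fos 129 and 66, and in Junb 106.

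Depth and quality differed between cells far more than the design did. The labels marked 54 cells as passed, with totals per cell of 422978 to 10673072 counts for D1 and 260943 to 7371668 for D2 cells without the knockout, and of 2937937 to 9040968 and 2764998 to 9680476 with it. A read was found in 1511 to 9938 genes per cell. Cells with a read in at least 4000 genes are called gene-rich here and the others gene-poor. The gene-rich ones were 9 of 15 (D1) and 13 of 26 (D2) in the wild-type groups, and 6 of 6 (D1) and 6 of 7 (D2) in the knockout groups. The mitochondrial share of counts reached 44.8%, 29.3%, 3.72% and 16.6% in these groups in the same order. Because the knockout groups held hardly any gene-poor cells, the members and the gene lists are compared over all cells and again over gene-rich cells. Fmr1 had a read in 8 of the 15 D1 and 13 of the 26 D2 cells labelled as without the knockout. It had none in the 6 knockout D1 cells (which allows a share of up to 50%) nor in the 7 knockout D2 cells (up to 42.9%).

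Pyramidal markers were found throughout. Nrgn, a calmodulin-binding protein of pyramidal dendrites, was read in every one of the 54 cells. Slc17a7, the vesicular glutamate transporter of cortical pyramidal cells, was read in all but 2 wild-type D1 cells, and the kinase gene Camk2a in all but 1. RNA of other cell types was present as well: the summed level of the 12 microglial markers reached 9837 CPM (counts of the gene per 1000000 counts of the cell) in a wild-type D1 cell and 4695 in a wild-type D2 cell, against at most 2434 and 3482 in the knockout D1 and D2 groups. Immediate early genes can be transcribed in these other cells too, and a read cannot be assigned to one of them.

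**Figure D1:**
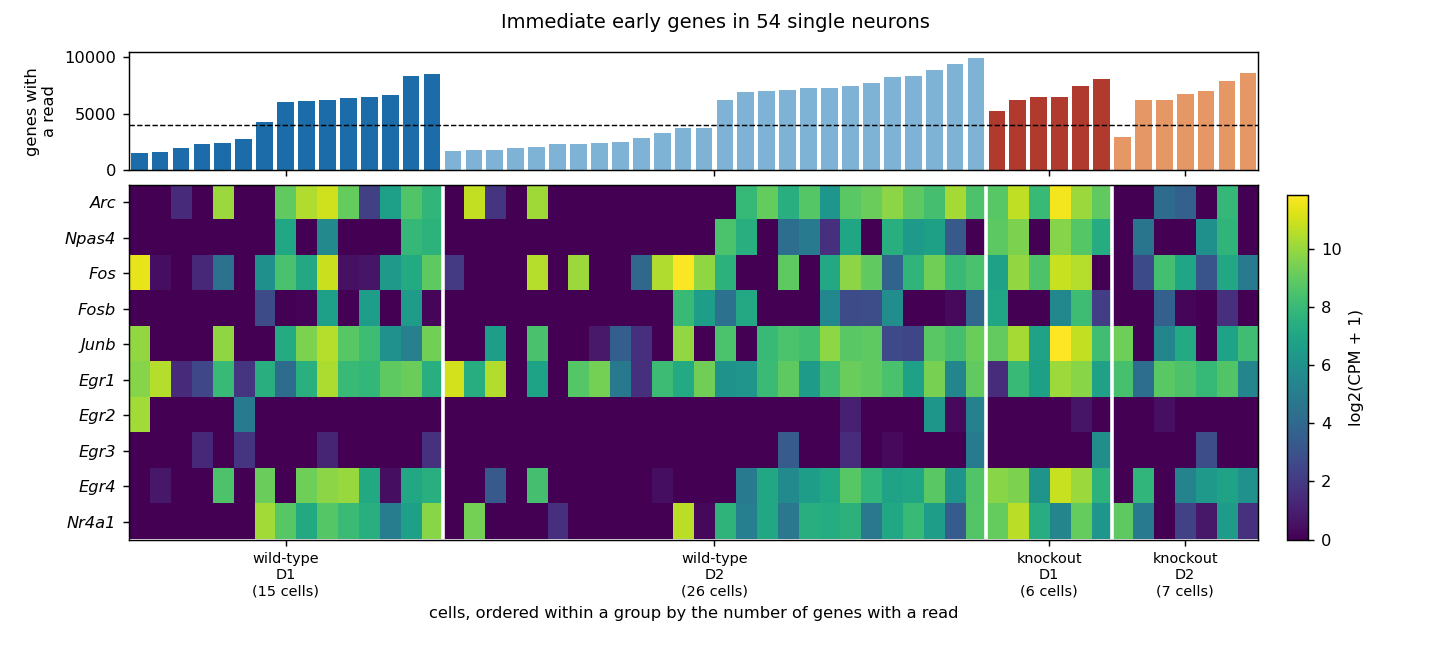
Heat map of log2(CPM + 1) of the 10 members (vertical axis) in the 54 cells that passed (horizontal axis, ordered within a group by the number of genes with a read); the bars above give the genes with a read per cell, with a dashed line at 4000. Most members are dark in the gene-poor cells at the left of the wild-type groups, the 6 knockout D1 cells are bright for Arc, Junb and Egr4, and Egr2 and Egr3 are dark nearly everywhere.

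Per length, the members spanned a wide range of levels. Over the 54 cells the mean ± SD in CPM per kilobase of merged exons was 188 ± 319 for Fos, 167 ± 271 for Junb, 137 ± 212 for Arc, 103 ± 172 for Egr4, 85.3 ± 99.1 for Egr1 and 60.0 ± 104 for Nr4a1. Npas4 followed at 20.9 ± 43.3, Egr2 at 7.43 ± 48.8, Fosb at 4.27 ± 9.83 and Egr3 at 0.469 ± 1.99. The SDs were larger than the means for all 10 members, and for each pair of neighbours in this order the gap was smaller than the larger of the 2 SDs. Fosb and Junb, whose proteins can pair in AP-1, thus stood near opposite ends, and Egr2 and Egr3 stood far below Egr1 and Egr4.

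By mean level the groups ordered the members differently, but single cells weighed heavily in these means. In knockout D1 cells 1 cell gave 65.6% of the summed Junb reads, 63.2% of Arc, 56.5% of Fos and 53.7% of Egr4. In knockout D2 cells 1 gene-poor cell gave 58.5% of the summed Junb and 89.9% of the Nr4a1 reads. In knockout D1 cells Junb (557 CPM per kilobase), Arc (397), Egr4 (379) and Fos (347) led, all above Nr4a1 (140), Npas4 (107) and Egr1 (92.02). In knockout D2 cells Junb (75.6) and Egr1 (59.6) led, with Fos (37.6), Egr4 (35.0), Nr4a1 (24.9), Arc (12.6) and Npas4 (10.4) behind. Wild-type cells had Fos and Junb at the top in D1 cells (172 and 169) and Fos and Arc in D2 cells (200 and 110). Egr1 kept nearly the same level per length in 3 groups, at 91.3 and 87.2 in the wild-type D1 and D2 groups and 92.02 in knockout D1 cells.

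How many cells carried a read set the members apart. Egr1 was read in 52 of 54 cells, Fos in 41, Junb in 39, Nr4a1 in 38, Egr4 in 36, Arc in 34, Fosb in 23, Npas4 in 22, Egr3 in 10 and Egr2 in 8. In the 20 gene-poor cells Egr1 was still read in 18 and Fos in 11, whereas Arc, Egr4 and Nr4a1 were each read in 5 and Npas4 in 0, which allows a share of up to 15.0%. Among the 34 gene-rich cells the numbers were 34 for Egr1, 33 for Nr4a1, 31 for Egr4, 30 for Fos, 30 for Junb, 29 for Arc and 22 for Npas4. Gene-poor libraries therefore lacked most members but not Egr1. For Arc the median over the 34 cells with a read was 453 CPM, and 2 of these cells held 10 or fewer reads. Egr2 and Egr3 were nearer the detection limit: 4 of the 8 cells with an Egr2 read and 5 of the 10 with an Egr3 read held 10 or fewer, with medians of 15.0 and 2.41 CPM.

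**Figure D2:**
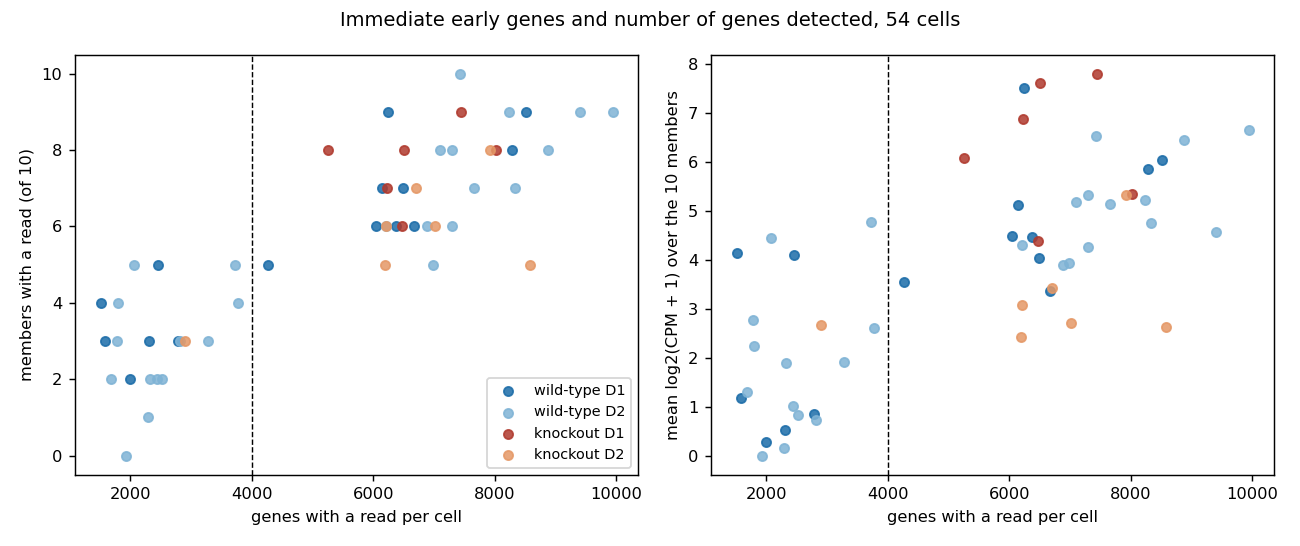
Number of members with a read (left) and mean log2(CPM + 1) of the 10 members (right) against the number of genes with a read, 1 point per cell, with a dashed line at 4000 genes. Cells with fewer than 4000 genes had 0 to 5 members with a read; among the others, 4 of 6 knockout D1 cells lie above 6 on the right axis and 5 of 6 knockout D2 cells lie below 4.

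Cells ranged from none of the members to all 10. Wild-type D2 cell 1 (1930 genes; cells are numbered within a group only to name them) had a read of 0 members and wild-type D2 cell 7 (7421 genes) of 10. The median number of members with a read was 6 (range 2 to 9) for D1 and 5 (0 to 10) for D2 cells of the wild type, and 8 (6 to 9) for D1 and 6 (3 to 8) for D2 cells of the knockout. Across the 54 cells it followed the number of genes with a read (Spearman 0.83), and less so across the 34 gene-rich cells (0.50), points that share each cell's depth. The mean log2(CPM + 1) over the 10 members was 3.70 ± 2.15 for D1 and 3.49 ± 2.04 for D2 cells of the wild type (SD over 15 and 26 cells), and 6.35 ± 1.34 and 3.18 ± 1.01 for those of the knockout (6 and 7 cells). In gene-rich cells it was 4.93, 5.09, 6.35 and 3.26, so the mean of the knockout D1 cells stood above and that of the knockout D2 cells below both wild-type means. Single cells overlapped: gene-rich wild-type D1 cells ranged from 3.35 to 7.51, knockout D1 cells from 4.38 to 7.80 and knockout D2 cells from 2.43 to 5.33. Summed over the members, the median was 1752 CPM for wild-type D1 cells and 1646 for D2, against 5195 for knockout D1 cells and 706 for D2.

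The first comparison asks whether D1 and D2 neurons without a knockout differ in these genes. Over all cells no member differed by more than 1 log2 unit, the size used here to call a difference between the means of log2(CPM + 1) over cells. Of the 10 members 0 were higher and 0 lower in D1 cells by that size, beside 9.21% and 13.2% of the 11059 genes measured (those averaging 1 CPM or more, with reads in 10% or more of the cells compared). This count depended on which cells entered: without those with a mitochondrial share above 10% (10 D1 and 23 D2 cells left) 4 members were higher in D1 cells, Junb by 2.40, Arc by 2.10, Egr4 by 1.89 and Nr4a1 by 1.57, beside a median of 0.28 over all genes. The share of all genes higher by that size in these remaining cells is not given, so the 4 cannot be set against it.

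Arc, the synaptic effector, ranged from 0 to 2062 CPM in wild-type D1 cells (median 104) and from 0 to 1773 in wild-type D2 cells (median 124). The groups overlapped throughout, and the difference was 0.24, but -0.73 in gene-rich cells and 2.10 without the cells whose mitochondrial share was above 10%. A read was found in 10 of 15 D1 cells (66.7%, exact Clopper-Pearson 95% interval 38.4 to 88.2, for the counting of cells only) and 15 of 26 D2 cells (57.7%, 36.9 to 76.6). Junb, an AP-1 partner of Fos, ranged from 0 to 1510 CPM (median 156) in D1 and from 0 to 986 (median 53.3) in D2 cells. Its difference of 0.90 and that of Egr4, also 0.90 (0 to 1058 CPM, median 136, against 0 to 451, median 19.1), were the largest of the 10, still within full overlap. Nr4a1 differed by 0.66, Egr2 by 0.52, Egr3 by 0.02, Egr1 by -0.17, Fosb by -0.30, Npas4 by -0.34 and Fos by -0.40, against a median of -0.14 over all genes.

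Gene-rich cells gave other calls for Nr4a1 and Npas4. In the 9 D1 and 13 D2 gene-rich cells Nr4a1 was higher in D1 cells by 1.41 (32.0 to 1199 CPM, median 276, against 9.83 to 413, median 134) and Npas4 lower by 1.30 (read in 4 of 9 and 10 of 13 cells). That is 1 member higher and 1 lower of 10, beside 11.1% and 33.4% of genes, with a median of -0.48 over all genes. Within the 4 ages that both kinds share (29, 30, 31 and 34 days) the direction turned from age to age: of the members only Egr3 had the same sign at all 4 ages, at -0.16, -0.21, -0.57 and -0.15. Fos, for example, differed by 1.11, -1.38, 6.24 and -3.14, and Arc by -0.47, -2.78, 2.40 and 0.34. Each age held 2 to 4 D1 and 2 to 7 D2 cells.

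**Figure D3:**
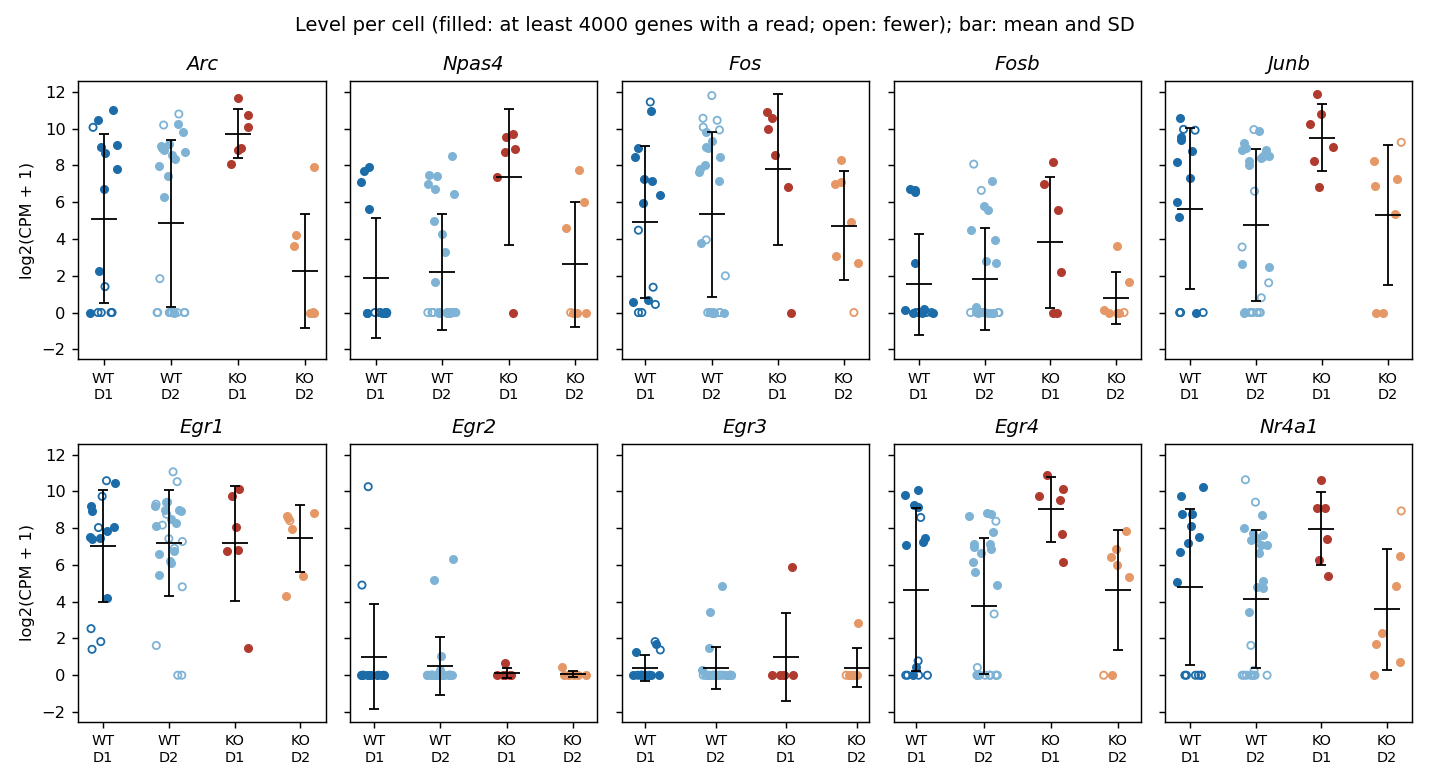
Level of each member in each cell as log2(CPM + 1), 1 point per cell, filled for cells with at least 4000 genes with a read and open for the others; the horizontal bars are means and the whiskers SDs (WT D1 15, WT D2 26, KO D1 6 and KO D2 7 cells; WT, wild-type; KO, knockout). The 6 knockout D1 cells lie above the 7 knockout D2 cells for Arc, while the groups overlap for Egr1.

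The second comparison, of Fmr1 knockout with wild-type D1 cells, addresses what the loss of FMRP goes with in D1 neurons. Here 7 of the 10 members were higher in the knockout cells by over 1 log2 unit and 0 were lower, but 49.6% of the 10792 genes measured were also higher and 8.02% lower. The wild-type group alone held gene-poor cells. The median over the members was 3.01 and over all genes 0.98. Among gene-rich cells (6 knockout and 9 wild-type) 6 of 9 measured members were higher and 0 lower, beside 28.5% and 22.7% of 11414 genes. There the median was 1.54 over the members and 0.14 over all genes.

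Npas4 had the largest difference. The 6 knockout D1 cells held 749.5, 162, 0, 426, 471 and 843 CPM, against 0 to 239 with a median of 0 in the 15 wild-type D1 cells. Of the knockout cells 4 exceeded every wild-type cell and 1 had no read. The difference of 5.49 (4.23 in gene-rich cells) rests partly on the 11 of 15 wild-type cells without a read. In mean CPM the groups stood at 442 ± 326 and 41.9 ± 81.8 (SD over 6 and 15 cells).

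Arc held 1733, 499, 265, 1107, 448 and 3221 CPM in the 6 knockout D1 cells and 0 to 2062, median 104, in the wild-type D1 cells. Every knockout cell lay above the wild-type median and 1 lay above the highest wild-type cell, so the groups overlapped. The difference was 4.63, and 2.51 in gene-rich cells, whose wild-type median was 406 CPM. With the counts of each group summed before scaling it was 1.38, and the cell with 3221 CPM then gave 63.2% of the knockout group's Arc reads.

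Egr4, a zinc-finger factor of the Egr family, held 748, 203, 70.1, 1101, 873 and 1894 CPM in knockout D1 cells and 0 to 1058, median 136, in wild-type D1 cells. The difference was 4.37, and 2.30 in gene-rich cells. Egr1, the member read in most cells, held 266, 111, 108, 870.4, 1.81 and 1118 CPM, against 1.66 to 1525 with a median of 232. The 2 groups covered nearly the same range of Egr1, and the difference was 0.16 (-0.73 in gene-rich cells). Egr2 was read in 1 of 6 knockout and 2 of 15 wild-type cells (difference -0.90) and Egr3 in 1 and 4 (0.57).

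Among the AP-1 members, Junb held 1233, 296, 114, 1760, 518 and 3763 CPM in knockout D1 cells, against 0 to 1510 with a median of 156. Fos held 989, 0, 371, 1523, 111 and 1902 CPM, against 0 to 2790 with a median of 60.4. Fosb held 0, 3.64, 0, 287, 127 and 45.9 CPM, against 0 to 104 with a median of 0. All 3 overlapped with wild-type cells, and knockout cell 2 had no Fos read while holding 8 other members. The differences were 3.85 for Junb, 2.86 for Fos and 2.29 for Fosb, and in gene-rich cells 2.29, 1.54 and 1.27. In the wild-type group the highest Fos value, 2790 CPM, belonged to gene-poor cell 11 (1511 genes), which also held 1218 CPM of Egr2 and no read of Arc, Npas4, Egr4 or Nr4a1.

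Nr4a1 held 1583, 75.1, 168, 538, 540.1 and 40.9 CPM in knockout D1 cells and 0 to 1199, median 102, in wild-type D1 cells. Its difference of 3.17 over all cells was gone among gene-rich cells (-0.04), where the wild-type cells ranged from 32.0 to 1199 CPM with a median of 276. The cell with the highest Arc, Junb and Egr4 of all 54 cells, knockout D1 cell 6, had the lowest Nr4a1 of its group.

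Leaving out each knockout D1 cell in turn kept all 7 members above 1 log2 unit, with Npas4 between 5.02 and 6.96, Arc between 4.24 and 4.96, Egr4 between 3.99 and 4.94 and Fosb between 1.42 and 3.06. Age was not matched: only 3 wild-type D1 cells were 31 days old and none 32. Against those 3 cells Arc differed by 4.23, Egr4 by 4.18, Nr4a1 by 2.49, Npas4 by 2.18, Fosb by 1.57 and Junb by 1.33, whereas Fos turned to -1.42, with Egr2 at -3.31 and Egr1 at -1.62. Genotype and age cannot be told apart with these cells.

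The third comparison sets the 7 knockout D2 cells against the 26 wild-type D2 cells. Of the 10 members 0 were higher and 2, Arc and Fosb, lower by over 1 log2 unit, beside 36.4% and 6.91% of the 11222 genes measured. In gene-rich cells (6 and 13) 0 were higher and 6 lower, beside 14.2% and 30.0% of 12132 genes, with a median of -1.28 over the members and -0.39 over all genes. The 6 were Arc, Nr4a1, Junb, Fosb, Npas4 and Egr4.

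Arc held 0, 11.5, 239.7, 0, 0, 17.4 and 0 CPM in the 7 knockout D2 cells, against 0 to 1773 with a median of 124 in the wild-type D2 cells and 0 to 1223 with a median of 430 in the gene-rich ones. Of the knockout cells 4 had no read, and all 6 gene-rich ones lay below the gene-rich wild-type median, although the ranges overlapped. A read was found in 3 of 7 cells (42.9%, exact interval 9.90 to 81.6), the same number after every cell was thinned to 250000 reads. The difference was -2.61 over all cells and -5.33 in gene-rich cells. A more negative difference was found for 0.14% of all genes measured in the former and for 0.01% in the latter. Without knockout D2 cell 3, which holds 239.7 CPM, it was -3.55 over all cells.

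Nr4a1 held 2.28, 3.93, 89.8, 0.677, 487, 0 and 27.8 CPM in the knockout D2 cells. The value of 487 came from the 1 gene-poor cell of the group, cell 5, and the others lay at or below 89.8. Against gene-rich wild-type D2 cells, at 9.83 to 413 CPM with a median of 134, the difference was -3.91, and over all cells -0.56. Junb held 299, 152, 117, 0, 609.8, 40.8 and 0 CPM, with the gene-poor cell again the highest. It differed by 0.54 over all cells and by -2.49 in gene-rich cells, where the wild-type median was 359 CPM.

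For the remaining members the difference over all cells is given first and that in gene-rich cells second. Egr4 held 62.7, 39.3, 114, 86.0, 0, 0 and 224 CPM (0.88 and -1.17). Npas4 was read in 3 of 7 knockout cells, at 216, 62.3 and 23.1 CPM (0.40 and -1.39). Fosb did not exceed 11.4 CPM (-1.05 and -1.62). Fos lay between 0 and 318 CPM with a median of 29.4, against 0 to 3555 with a median of 170 in wild-type D2 cells (-0.61 and -0.64). Egr1 lay between 18.8 and 451 CPM with a median of 337, against 0 to 2133 with a median of 278 (0.26 and -0.52), and was read in 7 of 7 cells. Egr2 and Egr3 were read in 1 knockout D2 cell each.

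All knockout D2 cells were 32 days old, and of the wild-type D2 cells 3 were 31 and 2 were 32 days old. Against those 5 cells Arc differed by -3.43, and Fosb, at -1.05 over all ages, by 0.78, so that 1 member remained lower by over 1 log2 unit. Leaving out knockout D2 cell 3 raised the number of lower members from 2 to 4, and the other cells left out one at a time gave 1 to 3. The share of all genes lower in these sets of cells is not given, so these counts have no background beside them.

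**Figure D4:**
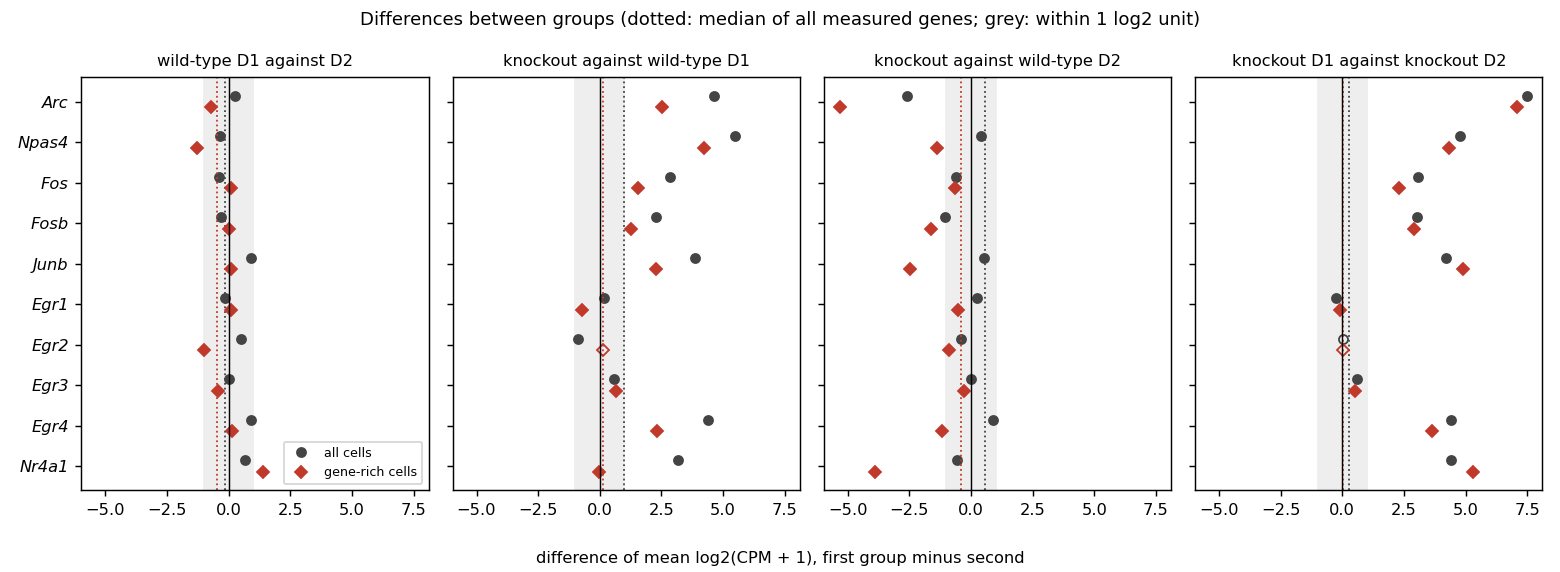
Difference of mean log2(CPM + 1) for each member in the 4 comparisons, over all cells (circles) and gene-rich cells (diamonds), open where the member was not measured by the filter; dotted lines give the median over all genes measured and the grey band the range within 1 log2 unit. In the knockout D1 against knockout D2 panel 7 members lie to the right of the band with both sets of cells, and Egr1 lies within it in all 4 panels.

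The fourth comparison sets the knockout groups against each other, which are matched in the number of genes detected (6 of 6 and 6 of 7 gene-rich) and nearly in age. It shares its cells with the 2 comparisons above. Of 9 members measured 7 were higher in D1 cells by over 1 log2 unit and 0 lower, beside 32.9% and 21% of 10990 genes, with a median of 4.22 over the members and 0.29 over all genes. In gene-rich cells the members gave 7 and 0, beside 27.5% and 26.2% of genes, with medians of 3.62 and 0.02.

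Arc had the largest difference, 7.48, and was the 1 member whose groups did not overlap: the lowest D1 cell held 265 CPM and the highest D2 cell 239.7. Of the 10990 genes measured, 12 (0.109%) lay wholly above the D2 cells in this way. Mean levels were 1212 ± 1123 CPM in the 6 knockout D1 cells and 38.4 ± 89.1 in the 7 knockout D2 cells. With the counts of each group summed the difference was 5.55, and with each cell left out in turn it lay between 7.09 and 8.42.

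Npas4 (442 ± 326 against 43.02 ± 79.6 CPM, difference 4.75), Egr4 (815 ± 661 against 75.1 ± 78.1, 4.39) and Nr4a1 (491 ± 579 against 87.4 ± 179, 4.39) came next. Every knockout D1 cell lay above the knockout D2 median for Egr4 and Nr4a1, and 5 of 6 did so for Npas4. The AP-1 members Junb (1281 ± 1364 against 174 ± 219 CPM, 4.22), Fos (816 ± 784 against 88.5 ± 116, 3.07) and Fosb (77.3 ± 114 against 1.96 ± 4.25, 3.05) followed. Egr1, at 413 ± 465 against 267 ± 174 CPM, differed by -0.27, with 2 of 6 D1 cells above the D2 median, and Egr3 by 0.58. Ages 31 and 32 days hold all of these cells. The same members were higher by over 1 log2 unit with each cell left out in turn, and Fos, the member with the widest range, then lay between 2.28 and 4.63.

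From cell to cell, members were high together only in part. Over the 34 gene-rich cells 42 of 45 pairs of members had a Spearman correlation of log2(CPM + 1) above 0, with a median of 0.24. The largest were between Fos and Junb (0.59), Junb and Egr4 (0.58), Arc and Junb (0.52), Fos and Egr1 (0.52), Arc and Egr4 (0.51) and Egr4 and Nr4a1 (0.50). Within the 22 gene-rich wild-type cells the median was 0.17 and 34 pairs were above 0. Fos and Junb (0.54) and Junb and Egr4 (0.50) stayed high there, while Arc with Junb was 0.21 and Arc with Egr4 0.29. These points share each cell's library and the division into groups, and the values are a description.

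**Figure D5:**
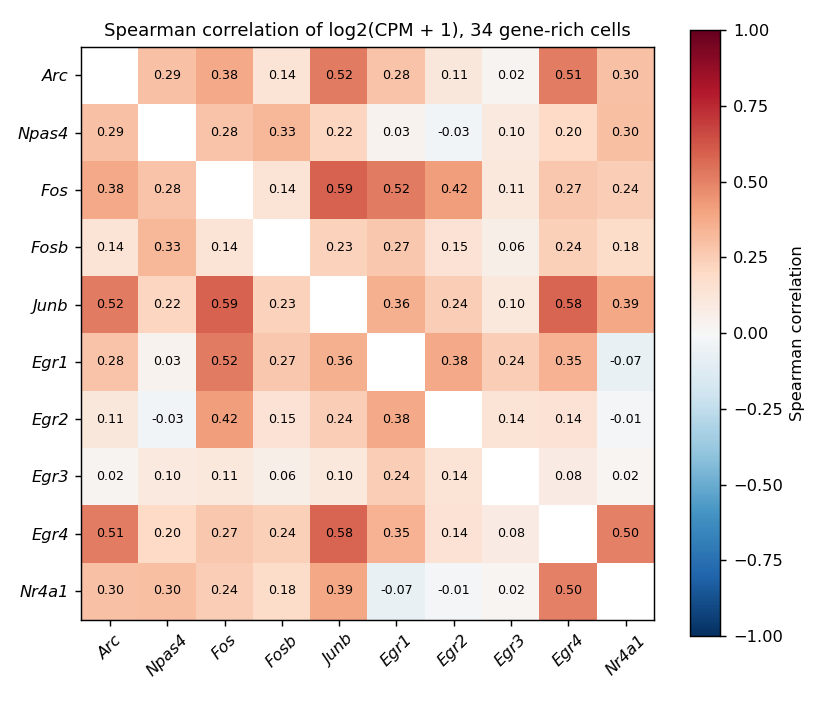
Spearman correlation of log2(CPM + 1) for each pair of members over the 34 gene-rich cells of all 4 groups. The largest values lie among Fos, Junb, Egr4, Arc and Egr1, and Egr3 has values near 0 with most members.

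Single cells illustrate this. Knockout D1 cell 6 held the highest Arc (3221 CPM), Npas4 (843), Junb (3763) and Egr4 (1894) of all 54 cells, with Nr4a1 at 40.9 CPM. Knockout D1 cell 1 held the highest Nr4a1 (1583 CPM), with Fosb at 0. The wild-type cell with the highest mean over the members, D1 cell 7, held 2062 CPM of Arc, 1971 of Fos, 1510 of Junb, 1382 of Egr1 and 891 of Egr4. Its Fos and Egr1 lay above every knockout D1 cell, and its Arc, Junb and Egr4 within their range. Wild-type D2 cell 22 (3724 genes) held 3555 CPM of Fos and 1579 of Nr4a1 without a read of Arc, Npas4 or Egr4. In wild-type D2 cell 10 (1673 genes) Egr1 reached 2133 CPM while Fos held 3 reads (2.996 CPM) and the other 8 members had no read.

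The genes most like the members over these 34 cells were mostly not immediate early genes. For the mean of the 10 members they were Slc17a5, a lysosomal sialic acid transporter (Spearman 0.72), Gnpda2 (0.68), Nln (0.67), Dusp1 (0.66) and Yeats2 (0.63), out of 8726 genes searched, those read in 33.3% or more of these cells. Dusp1, an early-induced MAP kinase phosphatase, was also among the 3 closest to Arc (0.64, after Prpf4 at 0.67 and before Hnrnph1 at 0.63) and to Junb (0.65, between Eng at 0.68 and Prosc at 0.63). For Egr4 they were March7 (0.61), Gramd1a (0.59) and Junb (0.58), and for Nr4a1 Gramd1a (0.65), Hexa (0.59) and Ctsa (0.52). For Fos they were Polr3gl (0.66), Cd83 (0.61) and Ncln (0.61), for Egr1 Bcl2 (0.61), Trappc6b (0.58) and Pip4k2a (0.58), for Npas4 Atp11a (0.66), Dot1l (0.65) and Dip2a (0.63), and for Fosb Sez6l2 (0.64), Ids (0.61) and Caskin1 (0.60). With so many candidates and 34 cells, values of this size are those of the highest ranks and no more than a description. Over all 54 cells several were smaller: the 3 genes named for Egr1 then gave 0.32, 0.31 and 0.34, and of the first-ranked genes of the 8 members and of the mean, 5 of 9 moved by over 0.1.

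Other rapid response genes were counted in the knockout D1 cells in the same way. Of 40 listed genes, 32 were measured against wild-type D1 cells. Of these, 21 were higher and 0 lower, beside 49.6% and 8.02% of all genes measured. The median was 1.74 beside 0.98 over all genes. In gene-rich cells 14 of 34 were higher and 3 lower, beside 28.5% and 22.7% of genes, with medians of 0.62 and 0.14. Jun, the main AP-1 partner of the Fos proteins, stood at 420 ± 358 CPM in knockout and 168 ± 338 in wild-type D1 cells (difference 4.55). Homer1, whose short form is an activity-induced scaffold that the gene counts do not separate from the long forms, stood at 817 ± 542 and 144 ± 178 (4.53). The lowest were Klf10 (-0.58) and Klf2 (-0.14). Against knockout D2 cells 19 of 32 were higher in knockout D1 cells and 1 lower, beside 32.9% and 21% of all genes (median 1.31 beside 0.29). Dusp1 (738 ± 739 against 114 ± 239 CPM, difference 4.09) and the growth-arrest gene Gadd45g (296 ± 233 against 81.5 ± 105, 3.83) led, with Btg2 (-1.97) and Dusp5 (-0.66) lowest.

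The rapid response list gave fewer calls elsewhere. In knockout against wild-type D2 cells 10 of 35 were higher and 7 lower, led by Klf6 (2.77) and Ier5 (2.64), with Srf (-1.53) and Tiparp (-1.39) lowest; in gene-rich cells 3 of 36 were higher and 12 lower (median -0.71 beside -0.39). In wild-type D1 against D2 cells 5 of 37 were higher and 5 lower, led by the kinase Sgk1 (1.67) and by Ier2 (1.64), with Btg2 (-2.06) and the clock gene Per2 (-1.73) lowest; gene-rich cells gave 8 and 10 of 37 (-0.39 beside -0.48). Between the knockout groups gene-rich cells gave 17 and 1 of 32 (1.03 beside 0.02). Each share is read against the background of its comparison given above.

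The delayed response list holds 25 genes picked as later responders to stimulation. Whether the members or their partners act on them was not tested. Against wild-type D1 cells 11 of 23 were higher and 1 lower in knockout D1 cells, beside 49.6% and 8.02% of all genes. The median was 0.94 beside 0.98. The potassium channel Kcna1 (4.17) and the scaffold Grasp (3.32) led, with Sorcs3 (-1.57) and the pentraxin Nptx2 (-0.86) lowest. In knockout D1 against knockout D2 cells 9 of 23 were higher and 3 lower (0.31 beside 0.29), led by Grasp (2.71) and Rgs2 (2.36), with neurofilament Nefm (-3.39) and Cdkn1a (-1.16) lowest. Knockout against wild-type D2 cells gave 11 higher and 2 lower of 21 (1.04 beside 0.56), led by the granule protein Scg2 (2.92) and the cAMP repressor gene Crem (2.84), with Stmn4 (-1.64) and Rgs4 (-1.03) lowest. There the balance turned in gene-rich cells, to 4 higher and 8 lower of 21 (0.11 beside -0.39). Wild-type D1 against D2 cells gave 5 higher and 3 lower of 22 (0.28 beside -0.14), led by Nrn1 (2.37) and Sorcs3 (2.27), with Nefm (-1.62) and Stmn4 (-1.14) lowest. Over gene-rich cells this comparison gave 5 and 6 of 23 (-0.34 beside -0.48), knockout against wild-type D1 cells 7 and 5 of 23 (-0.03 beside 0.14), and the knockout groups 8 and 3 of 23 (0.02 beside 0.02).

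The list of genes upstream of the members holds 43, among them calcium channels, kinases and the factors at their promoters. Of these, 28 were higher and 4 lower in knockout than in wild-type D1 cells (median 1.48 beside 0.98). Of all genes measured there, 49.6% were higher and 8.02% lower. Crebbp, the CREB-binding co-activator, was read in 6 of 6 knockout cells at 239 ± 168 CPM and in 9 of 15 wild-type cells at 20.1 ± 36.8 (difference 4.79). Cacna1d, an L-type calcium channel, stood at 104 ± 88.9 and 7.16 ± 22.96 CPM (4.69), while the CaM kinase kinase Camkk1 (-1.99) and the calcineurin subunit Ppp3r1 (-1.95) were lowest. In gene-rich cells 19 were higher and 7 lower (0.92 beside 0.14). Between the knockout groups 18 were higher in D1 cells and 8 lower (0.72 beside 0.29), led by the histone deacetylase Hdac5 (4.60) and Map2k2 (2.41), with Mapk3 (-1.77) and the CREB co-activator Crtc1 (-1.72) lowest. Knockout against wild-type D2 cells gave 15 and 4 (0.62 beside 0.56), beside 36.4% and 6.91% of all genes. Prkacb (3.11) and Creb1 (2.99) led there, with Rps6ka2 (-1.98) and Srf lowest. In gene-rich cells, however, this comparison gave 4 and 7 (-0.29 beside -0.39). Wild-type D1 against D2 cells gave 2 and 10 (-0.22 beside -0.14), led by Mkl2 (1.72) and Camkk1 (1.16), with Mef2d (-2.14) and Crebbp (-2.07) lowest. In gene-rich cells wild-type D1 against D2 gave 3 and 17 (-0.53 beside -0.48), and the knockout groups 11 and 6 (0.24 beside 0.02).

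Partners and co-repressors of the members numbered 18. Between the knockout groups 7 of 17 were higher in D1 cells and 2 lower (median 0.09 beside 0.29): Jun (420 ± 358 against 91.2 ± 99.3 CPM, 3.24) and the dynamin Dnm2, which Arc binds (2.58), led, and the Egr co-repressor Nab2 (18.7 ± 31.1 against 124 ± 153 CPM, -2.93) and the nuclear receptor Rxra (-2.06) were lowest. Nab2 was also the highest in knockout against wild-type D2 cells (3.47, with the endophilin Sh3gl2 at 2.98), where 6 of 17 were higher and 1 lower (0.64 beside 0.56), Arnt2 lying at -0.99 and Fmr1 having no read. Among gene-rich cells that comparison gave the opposite balance, with 3 higher and 9 lower of 17 (-1.13 beside -0.39). Knockout against wild-type D1 cells gave 8 higher and 1 lower of 16 (1.00 beside 0.98), beside 49.6% and 8.02% of all genes. Jun and the kinase subunit Camk2b (3.81) were highest there, and Rxrb (-0.98) and Fmr1 lowest. Wild-type D1 against D2 cells gave 3 and 2 of 16 (0.22 beside -0.14), from Sh3gl2 (1.80) and Sh3gl3 (1.41) to Camk2b (-1.34) and Arnt2 (-1.79). With gene-rich cells these last 2 comparisons gave 4 and 4 of 17 (0.09 beside 0.14) and 1 and 4 of 17 (-0.26 beside -0.48), and the knockout groups 5 and 3 of 17 (0.38 beside 0.02). Sh3gl2 and Sh3gl3 encode members of the endophilin family, and whether Arc acts through each of them was not tested.

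Markers of other cell types were counted in the same way, and their part in the results was not tested. Each count is read against the shares of all genes given above with its comparison. Some counts lay near those shares, such as 5 of 9 pyramidal markers higher in knockout than in wild-type D1 cells, beside 49.6%. Others lay further off, such as 7 of 11 microglial markers lower in gene-rich cells of that comparison, beside 22.7%. In knockout against wild-type D1 cells, 0 of 4 measured interneuron markers were higher and 0 lower, microglial 1 and 3 of 11, astrocyte 1 and 3 of 8, oligodendrocyte 1 and 1 of 4, endothelial or mural 1 and 1 of 2, and pyramidal 5 and 1 of 9. Between knockout D1 and D2 cells the same lists gave 0 and 4 of 5, 2 and 2 of 12, 3 and 0 of 8, 0 and 3 of 4, 1 and 0 of 1, and 2 and 3 of 9. In knockout against wild-type D2 cells they gave 2 and 0 of 8, 2 and 2 of 11, 1 and 2 of 7, 3 and 1 of 8, 0 and 0 of 2, and 4 and 0 of 10. Wild-type D1 against D2 cells gave 0 and 1 of 7, 5 and 1 of 11, 2 and 0 of 8, 0 and 2 of 7, 0 and 0 of 2, and 1 and 1 of 9. Gene-rich cells shifted some of these counts, most of all for microglial markers in knockout against wild-type D1 cells, of which 0 were higher and 7 lower of 11 (median -1.27 beside 0.14 over all genes). In the order of the lists above, that comparison then gave 0 and 1 of 4, 0 and 7 of 11, 1 and 2 of 8, 1 and 1 of 5, 1 and 0 of 1, and 0 and 1 of 9. The knockout groups gave 0 and 4 of 5, 1 and 2 of 12, 4 and 1 of 8, 1 and 2 of 4, 1 and 0 of 1, and 3 and 3 of 9. Knockout against wild-type D2 cells gave 2 and 0 of 7, 1 and 3 of 12, 2 and 0 of 8, 1 and 3 of 7, 0 and 1 of 1, and 3 and 1 of 10, and wild-type D1 against D2 cells 0 and 1 of 6, 5 and 0 of 11, 3 and 0 of 7, 1 and 2 of 7, 0 and 1 of 2, and 2 and 0 of 9. The interneuron markers stood apart between the knockout groups: summed, they lay between 0 and 135 CPM in D1 and between 0.654 and 459 CPM in D2 cells, and 7 of the 10 had no read in any D1 cell against 1 of 10 in D2 cells. Summed microglial markers lay between 0.453 and 2434 CPM in knockout D1 and between 29.9 and 3482 in knockout D2 cells. Oligodendrocyte markers lay between 0 and 2476 and between 99.4 and 11094 CPM, and astrocyte markers between 286 and 1457 and between 147 and 1486.

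No member overlaps another in the genome. In the GENCODE vM21 annotation of GRCm38, Arc lies on chromosome 15 from 74669083 to 74672570 and Nr4a1 on chromosome 15 from 101254269 to 101274795, Npas4 on chromosome 19 from 4984355 to 4990316, Fos on chromosome 12 from 85473890 to 85477273, Fosb on chromosome 7 from 19302696 to 19310051 and Junb on chromosome 8 from 84974484 to 84978718. Egr1 lies on chromosome 18 from 34859823 to 34864984, Egr2 on chromosome 10 from 67535475 to 67542188, Egr3 on chromosome 14 from 70077203 to 70082614 and Egr4 on chromosome 6 from 85511121 to 85513589. Of the 10, only Junb overlaps the exons of another gene: 173 of its 2301 exon bases coincide with Prdx2 on the opposite strand, and reads there cannot be assigned to one of them unless strand was used in counting. For all 10 members the counts in the symbol table equalled those in the table of Ensembl identifiers.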

How the data were processed

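Cytosol was extracted from 1 neuron at a time with a patch pipette and sequenced after Nextera XT library preparation, per the labels' protocols. The submitters' processing notes name Trimmomatic, STAR, featureCounts and GRCm38. What each tool did, its version and the use of strand: not given in the sources used here. Read counts per gene symbol, as whole numbers, are the deposited values used. A normalized signal table of 14067 genes, deposited by the authors, holds each cell's counts times a constant for that cell (0.373 to 51.5) of unstated origin, and served as an alternative only. Each table also held 2 columns that match no sample label and were not used. Electrophysiology was not analysed here.

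CPM were computed from the counts with each cell's total over genes. Differences were taken between group means of log2(CPM + 1), each cell weighing the same, and called past 1 log2 unit. Cells without a read can drive them far beyond the ratio of mean CPM, and for genes with few reads they come out too small. Genes averaging 1 CPM or more, with reads in 10% or more of the cells compared, count as measured. No animal is named, so no p-value was computed. The 1 cell labelled as failed (knockout D1) was left out of all groups. All 10 members are named in each comparison; of each other list, the 2 measured genes with the largest and the 2 with the smallest difference; as most alike, the 3 genes per member read in most gene-rich cells, and the 5 for their mean, with the highest Spearman correlation, passing over mitochondrial and predicted genes. The members, the lists and the gene-rich boundary were chosen with earlier results of these data known. Alternatives were other scalings (TMM, totals without mitochondrial genes and Rn18s-rs5, the authors' values), a pseudocount of 10, gene-rich cells, summed counts, no filter, matched ages, each knockout cell left out in turn, at least 10 reads, and cells thinned to 250000 reads. A further one, leaving out cells with a mitochondrial share above 10%, was chosen after seeing the data. Intervals are exact Clopper-Pearson at 95% and, like the limits that a count of 0 allows (3 counts), cover the counting of cells only. Reads without molecular identifiers are not independent molecules.

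Positions and merged exon lengths came from GENCODE vM21, of the GRCm38 build, and promoter windows from RefSeq (GRCm38.p6). Python 3.11.15 was used with numpy 2.4.6, pandas 2.3.3, scipy 1.17.1 and matplotlib 3.10.9. Under R 4.3.3, edgeR 4.0.16 supplied the TMM scaling and nothing else. The procedure was tested on simulated data.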

Additional observations from a re-analysis of the deposited data

Results flagged for a closer look

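Of 22 groups of 6 or 7 knockout cells looked at, for each member and for the mean of all 10, 6 held a cell set apart from the others by Dixon's criterion. For 4 of these, Egr2 and Egr3 in both groups, this only restates that 1 cell had a read and the others none, so the number is not comparable with the 1 in 20 that chance would give. Values are log2(CPM + 1). Npas4 was at 0.0 in knockout D1 cell 3, while the next lowest cell of the group stood at 7.35. Egr3 was read in 1 knockout D1 cell, cell 2, at 5.88 (57.96 CPM), and in 1 knockout D2 cell, cell 4, at 2.83 (6.10 CPM), with the other cells of each group at 0. Egr2 was likewise read only in knockout D1 cell 4, at 0.659, and knockout D2 cell 6, at 0.474, of the 13 knockout cells, both below 1 CPM. The mean over the 10 members was 5.33 in knockout D2 cell 3, with the next highest cell of the group at 3.42. That cell also held the highest Arc and Npas4 of the group.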

How the results depend on the processing

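Of the 40 member differences, 14 changed sign in gene-rich cells, 8 with summed counts and 0 to 5 under the other settings that keep all 4 comparisons; 6 of 10 did so at the 4 ages that wild-type cells share and 7 of 30 at 31 and 32 days. Among knockout against wild-type D2 differences, Junb (0.54 to -2.49), Egr4 (0.88 to -1.17) and Npas4 (0.40 to -1.39) passed 1 log2 unit on the opposite side in gene-rich cells. The number of members higher in knockout than in wild-type D1 cells (7) and in knockout D1 than in knockout D2 cells (7) stayed within 1.5 times in every setting run. Differences above 1 log2 unit that turned were Nr4a1 in knockout against wild-type D1 cells (-0.036 in gene-rich cells), Fos in the same comparison (-1.42 at 31 and 32 days) and Fosb in knockout against wild-type D2 cells (0.78 at 31 and 32 days). In wild-type D1 against D2 cells, where 0 members were higher and 0 lower, 1 was higher with the authors' normalized values, 1 in gene-rich cells, 1 with summed counts, 2 at the 4 shared ages and 4 without cells with a mitochondrial share above 10%; 1 was lower in gene-rich cells and 1 with summed counts. In knockout against wild-type D1 cells 0 were lower, against 1 with the authors' values, 1 with summed counts and 3 at 31 and 32 days, and 0 to 1 with each knockout cell left out (1 without cell 4). In knockout against wild-type D2 cells 0 were higher, against 1 with TMM scaling, 1 with the authors' values and 1 without cells with a mitochondrial share above 10%, and 0 to 1 with each knockout cell left out. Of the 2 lower, there were 6 in gene-rich cells, 7 with summed counts, 1 at 31 and 32 days and 1 to 4 with each knockout cell left out (4 without cell 3). The cause of these changes was not tested. Except for gene-rich cells, the shares of all genes called under these settings are not given. The changed counts therefore cannot be set against a background. No paired analysis was possible because the labels carry no replicate numbers, those used here only naming cells. Detection is limited by the number of genes read per cell, and no spread between animals could be measured.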

Other observations

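One cell, a knockout D1 neuron labelled as failed, held 950010 counts and a read in 995 genes, fewer genes than any of the 54 cells that passed. Of the 10 members it held a read of 2, Fos at 353 CPM and Egr1 at 23.2 CPM.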
